A study of Mus musculus with 24 samples.

Results

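The nuclear genes for respiratory complexes II to V were followed in inguinal white adipose tissue (iWAT), a fat depot under the skin of the hind body, of mice that carried a deletion of LPCAT3 or did not. LPCAT3 is an enzyme that places polyunsaturated fatty acids on phospholipids. Genes were chosen by symbol: Sdha to Sdhd, the Sdhaf genes, the Uqcr genes, Cox4 to Cox8 and the Atp5 genes, without Cox7a1 and Cox8b, each with at least 10 counts in 4 or more libraries. This gave 47 of the 35727 genes in the deposited tables. Complex II had 8 (4 subunits and 4 assembly factors), complex III 8, complex IV 14 (13 subunits and the supercomplex assembly factor Cox7a2l) and complex V 17. Of 60 symbols that matched, 2 were left out by name and 11 had too few counts. All 47 passed the filter on low counts that came before the tests. Cox6a2 reached 10 counts in 18 libraries and each of the others in all 24.

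Tissue was compared by bulk RNA-seq in 6 groups of 4 libraries: KO (named AdL3KO by the submitters) and WT on a diet enriched in omega-3 fat (n3), KO and WT on a diet enriched in omega-6 fat (n6), and KO and WT on a diet enriched in saturated fat (SFA). All mice were male, aged 18 to 22 weeks, and all diets gave 60% of calories as fat, so no group was on a low-fat diet. The construct behind the deletion, and the cells in which it acts, could not be taken from the labels. The series title speaks of mature adipocytes, while the protocols name the tissue and describe no isolation of cells. Nothing in the labels says that the 4 libraries of a group came from separate mice, so p-values measure the spread between these libraries.

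Complex II (succinate dehydrogenase) takes electrons from succinate, complex III passes them from ubiquinol to cytochrome c, and complex IV (cytochrome c oxidase) gives them to oxygen. Complexes III and IV pump protons out of the mitochondrial matrix, and complex V (ATP synthase) lets them back in to make ATP. Complex II is encoded wholly in the nucleus, while a few core subunits of the other complexes come from mitochondrial DNA. In white fat these complexes are sparse compared with brown or beige fat, where their genes follow the coactivator PGC-1α and its partners.

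The libraries held 43.6 M to 62.1 M estimated counts (median of 50.2 M), and 15259 genes were tested. Lpcat3 was the check of the genotype: it measured 58.9, 53.7, 61.3 and 58.99 CPM (counts scaled to a common library size) in KO on n3, against 114, 113, 119 and 112 CPM in WT. It fell on all 3 diets, by 0.97 (n3), 0.51 (n6) and 0.63 (SFA) on the log2 scale (edgeR adjusted p = 4.71e-11, 5.34e-07 and 1.88e-08). In the deposited TPM, transcript levels scaled by length and library, Lpcat3 was apart between KO and WT on n3 alone. On n6 it had 71.2, 70.8, 76.1 and 79.1 TPM in KO, against 68.3, 68.8, 76.5 and 64.4 TPM in WT, and on SFA 112, 107, 105 and 99.00 TPM in KO, against 86.8, 101, 114 and 102 TPM in WT, so these groups overlapped. On n6 and SFA the genotype was therefore checked by the counts alone, and the cause of the difference between units was not tested. Summed CPM of 6 adipocyte markers overlapped between KO and WT on each diet and had group medians from 20310 to 24050 CPM. As a mean of log2 CPM they overlapped on n3 and n6, and on SFA they were lower in KO without overlap, with 10.83 to 10.99 in KO and 11.05 to 11.13 in WT. Markers of skeletal muscle were high in replicate 1 of KO on n6, and markers of B cells in replicate 2 of KO on n6, replicate 2 of KO on SFA and replicate 3 of WT on SFA.

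Most genes of all 4 complexes were higher in KO than in WT on every diet. On n3, 41 of the 47 members rose in KO and 0 fell, where 20.1% of all tested genes rose and 18.7% fell (edgeR quasi-likelihood test, adjusted p below 0.05). On n6, 38 members rose and 1 fell, against 21% and 22.1% of all genes. On SFA, 34 rose and 1 fell, against 20% and 19.9%. The median log2 fold change of the members was 0.45 on n3, 0.39 on n6 and 0.24 on SFA, beside medians of -0.03, 0.00 and 0.00 over all tested genes. As a fold, those member medians were 1.37, 1.31 and 1.18. In bulk tissue a change in the share of a cell type and a change in RNA per cell cannot be told apart.

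Summed over all members, expression came to 8532, 9022, 9274 and 7641 CPM in KO on n3, against 6289, 6545, 6230 and 6362 CPM in WT. On n6 it was 7304, 7516, 7422 and 7283 CPM in KO, against 5454, 5741, 5368 and 5795 CPM in WT. On SFA it was 7862, 7295, 8494 and 8281 CPM in KO, against 6194, 6668, 6648 and 6915 CPM in WT. On each diet, every KO library was above every WT library of that diet in CPM. In the deposited TPM the same held on n3 and n6 alone. On SFA the TPM totals overlapped, with 18630 to 20180 TPM in KO and 17960 to 18970 TPM in WT. By complex, III, IV and V overlapped in TPM on SFA, and complex II did not. The highest total was that of KO on n3 (8617 ± 720 CPM, SD, n = 4) and the lowest that of WT on n6 (5589 ± 210 CPM), and KO on n6 (7381 ± 109 CPM) lay above WT on n3 (6356 ± 137 CPM). Ratios of the KO mean to the WT mean were 1.36 on n3, 1.32 on n6 and 1.21 on SFA.

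**Figure D1:**
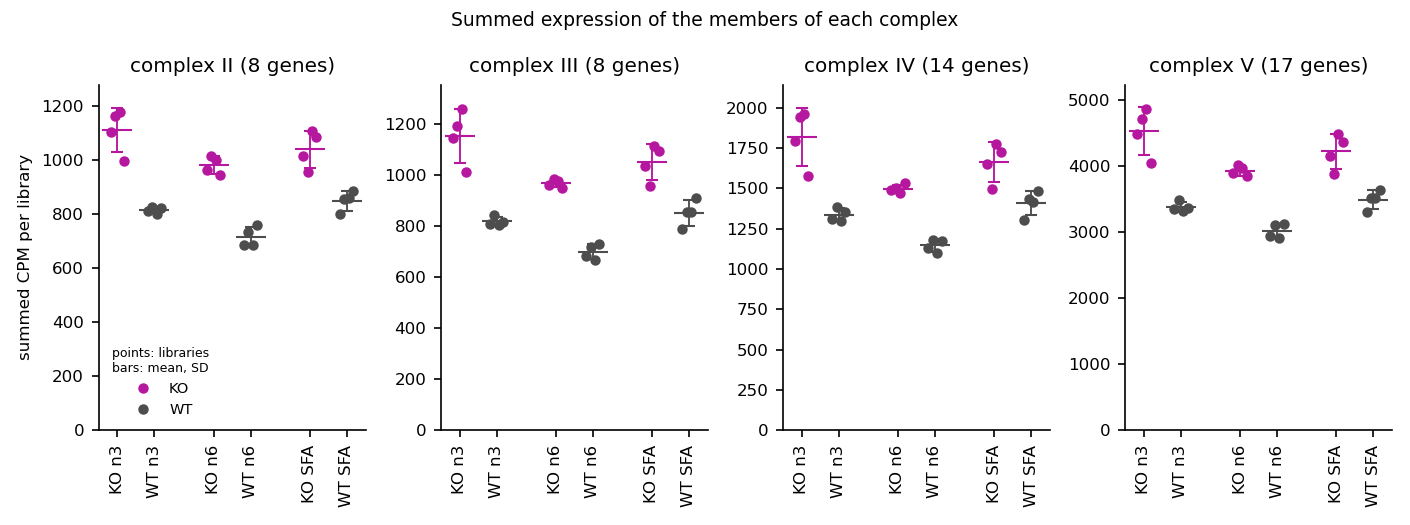
Summed CPM of the members of each complex (vertical axes, starting at 0) in the 24 libraries by genotype and diet (horizontal axes), with points for libraries and bars for the mean and SD of 4. In all 4 complexes and on all 3 diets the KO libraries lie above the WT libraries of the same diet, and replicate 4 of KO on n3 is the lowest of its group (7641 CPM over all members, against 8532 to 9274 in the other 3).

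The count of members did not rest on a single diet or complex. In all, 34 members rose on all 3 diets, 4 rose on 2 diets and 3 on 1 diet, while 5 passed the test on no diet and 1, Atp5g1, fell on n6 and SFA. KO and WT libraries did not overlap, with KO higher, for 39 members on n3, 40 on n6 and 26 on SFA, where 17.2%, 19.4% and 18% of all tested genes had that pattern. By complex, the median log2 fold change on n3, n6 and SFA was 0.43, 0.32 and 0.20 for complex II, 0.48, 0.44 and 0.32 for complex III, 0.46, 0.41 and 0.24 for complex IV, and 0.43, 0.34 and 0.24 for complex V. Averaged over the diets, 42 members rose and 1 fell, where 27.8% of all genes rose and 29.8% fell. The 4 others, Cox4i2, Cox6a2, Cox6b2 and Cox7a2l, all belong to complex IV.

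**Figure D2:**
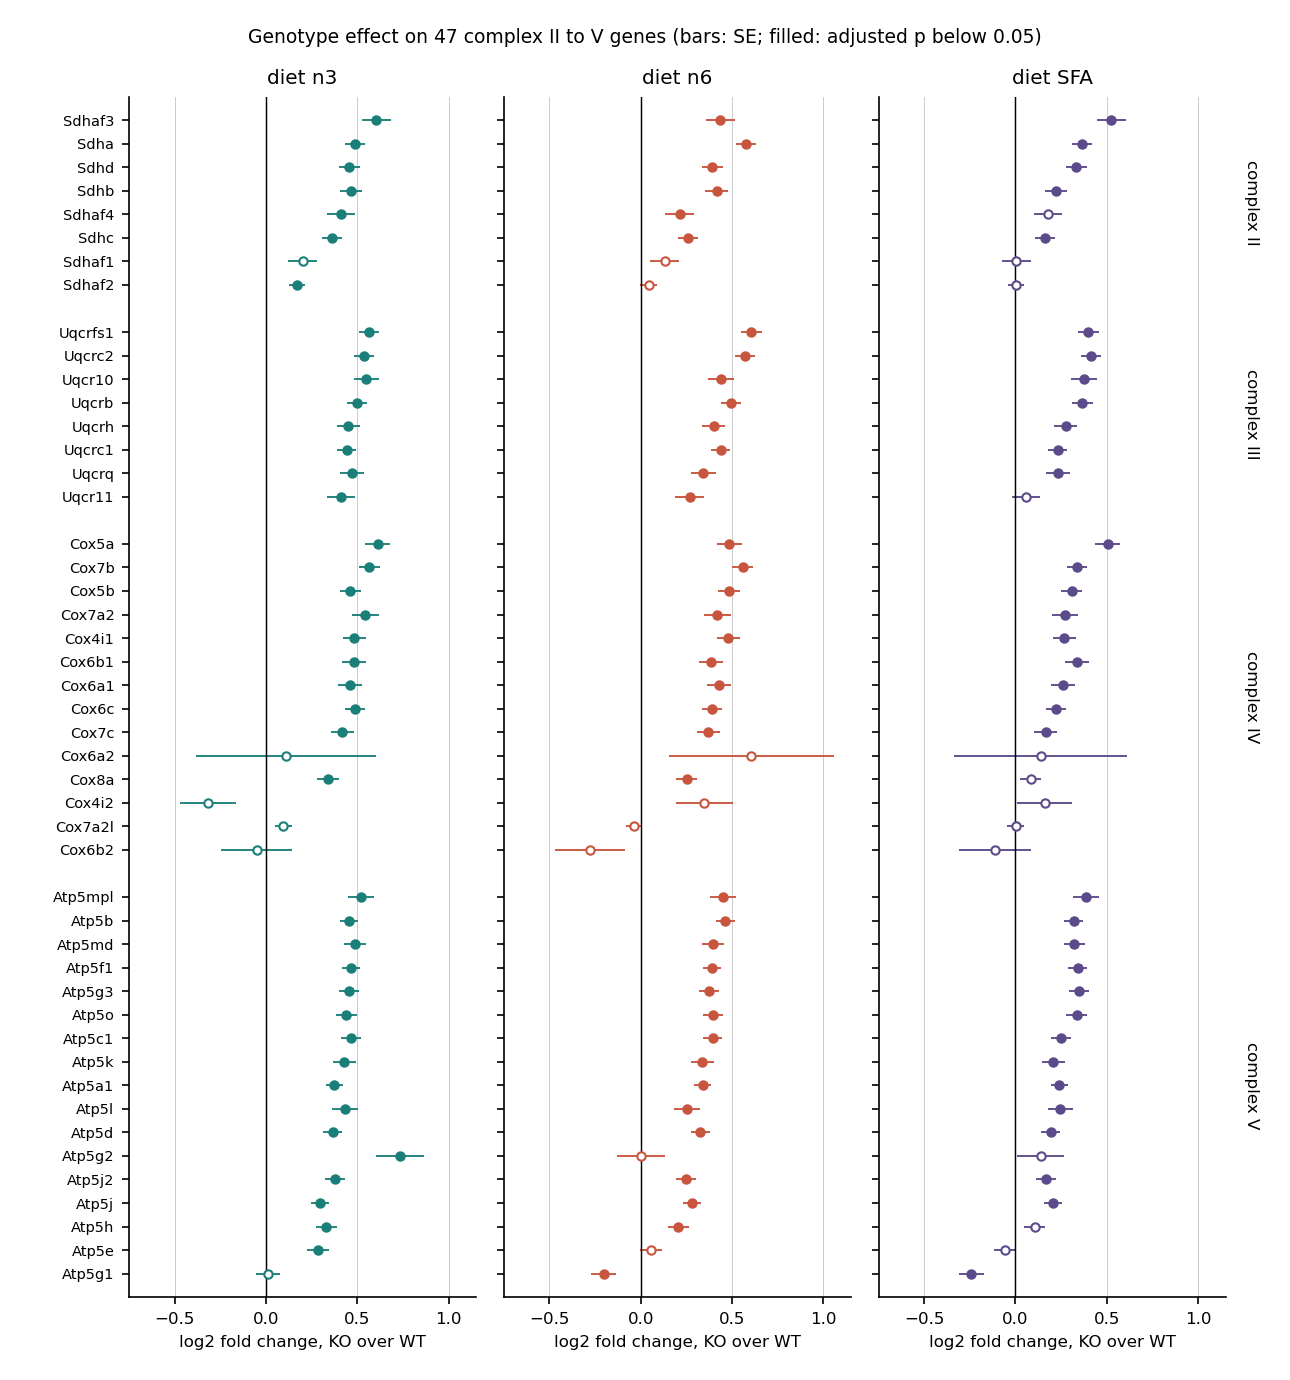
Log2 fold change of KO over WT (horizontal axis, with SE) for each of the 47 members (vertical axis, grouped by complex and sorted by their average) on n3, n6 and SFA, with filled points for an adjusted p below 0.05. Filled points lie right of 0 for 41, 38 and 34 members, and only Atp5g1 has filled points left of 0, on n6 and SFA.

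Those counts depend on the unit. In TPM the median of all tested genes itself moved by -0.19 on n3, -0.16 on n6 and -0.12 on SFA (log2 of TPM + 1, limma). Relative to it the members' medians were higher by 0.39, 0.33 and 0.20, but the split of calls was 38 higher and 3 lower on n3, 31 and 5 on n6, 20 and 5 on SFA and 33 and 6 in the average. Of all 15179 genes tested in TPM, 6.01% were higher and 49.3% lower on n3, 7.77% and 44.9% on n6, 6.97% and 35.6% on SFA, and 9.08% and 60.5% in the average. On SFA the members called higher were thus 20 in TPM, against 34 in the counts. The members called lower in TPM were Atp5g1 and Cox7a2l on every diet, with Cox4i2 on n3, Atp5e and Sdhaf2 on n6 and SFA, Cox6b2 on n6 and Cox8a on SFA. After scaling the TPM by the trimmed mean of M values (TMM), as was done for the counts, the split was 41 and 0 on n3, 38 and 1 on n6, 31 and 1 on SFA, and 39 and 1 in the average, with Atp5g1 as the lower one wherever there was one. The shares of all genes were then 15.9% higher and 15.7% lower on n3, 17.9% and 19.4% on n6, 16.3% and 17.2% on SFA, and 24% and 27.5% in the average.

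The fold change was positive in the counts and negative in unscaled TPM for 5 members on n3, 5 on n6, 12 on SFA and 5 in the average. Those that were called in the counts were Sdhaf2 on n3, Atp5j2 on n6, Sdhc, Cox7c and Atp5j2 on SFA, and Atp5e, Sdhaf1 and Sdhaf2 in the average. Of the calls in the counts, 37 of 41 on n3, 32 of 39 on n6, 19 of 35 on SFA and 33 of 43 in the average were also made, with the same sign, under each of the other settings run (11 for a diet and 10 for the average, with single libraries left out not among them).

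In complex II, all 4 subunits rose on all 3 diets. Sdha, the flavoprotein that oxidises succinate (chr13:74322254-74350280, mm10, minus strand, GENCODE M21 as for the genes below), had the smallest p of the complex in the average over diets. It measured 591, 638, 629 and 545 CPM in KO on n3, against 425, 429.6, 422 and 437 CPM in WT. On n6 there were 527, 564, 551 and 518 CPM in KO, against 342, 369, 345 and 392 CPM in WT. On SFA there were 538, 515, 603 and 585 CPM in KO, against 419.7, 438, 434 and 449 CPM in WT. The lowest KO library was above the highest WT library on each diet, and the log2 fold changes were 0.49 ± 0.05 on n3, 0.58 ± 0.05 on n6 and 0.36 ± 0.05 on SFA (SE; adjusted p = 2.61e-07, 1.13e-08 and 1.03e-05). Sdhb, the iron-sulfur subunit, rose by 0.46 ± 0.06 on n3, 0.42 ± 0.06 on n6 and 0.22 ± 0.06 on SFA. Of the membrane anchors, Sdhd rose by 0.46 ± 0.06 on n3, 0.39 ± 0.06 on n6 and 0.33 ± 0.06 on SFA and Sdhc by 0.36 ± 0.05 on n3, 0.26 ± 0.05 on n6 and 0.16 ± 0.05 on SFA. The call of Sdhc on SFA was lost without KO replicate 3, KO replicate 4 or WT replicate 1 of that diet (adjusted p up to 0.0857). In unscaled TPM Sdhc had 0.10 on n3 (limma adjusted p = 0.0497), 0.01 on n6 (adjusted p = 0.884) and -0.01 on SFA (adjusted p = 0.846), so the calls on n6 and SFA were lost in that unit.

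The 4 assembly factors of complex II were far less even. Sdhaf3, which helps to mature the iron-sulfur subunit, is a low gene (mean of 4.98 TPM, against 305 TPM for Sdha) but rose like the subunits. It measured 15.8, 15.1, 16.1 and 12.5 CPM in KO on n3, against 9.72, 9.93, 9.27 and 10.3 CPM in WT. The KO and WT libraries did not overlap, and the same held on n6 and SFA. In TPM they overlapped on n6, with 4.84 to 5.58 TPM in KO and 4.02 to 4.90 TPM in WT. Its log2 fold changes were 0.60 ± 0.08 on n3, 0.44 ± 0.08 on n6 and 0.52 ± 0.08 on SFA (adjusted p = 3.01e-06, 1.28e-04 and 1.40e-05). Sdhaf4, which helps flavinylated Sdha to dimerise with Sdhb, rose on n3 (0.41) and n6 (0.21) and had 0.18 on SFA (adjusted p = 0.0687). Its call on n6 was lost without KO replicate 1 or 4 or WT replicate 3 or 4 of that diet (adjusted p up to 0.0863). Sdhaf2, which helps to attach the flavin to Sdha, rose on n3 alone, by 0.17, with values of 0.04 on n6 and 0.00 on SFA, and in unscaled TPM its value on n3 was -0.05 (limma adjusted p = 0.268). Sdhaf1, a factor for iron-sulfur insertion, passed the test on no diet, with 0.20, 0.13 and 0.00. Its call in the average over diets (0.11, adjusted p = 0.0447) remained in 7 of the 24 fits that each left out 1 library.

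All 8 members of complex III rose on n3 and on n6, and 7 rose on SFA. Uqcrc2, a core protein of the matrix arm (chr7:120635176-120659524), had the smallest p of all members in the average over diets. It measured 211, 219.5, 223 and 186 CPM in KO on n3, against 144, 147, 142 and 146 CPM in WT. The values on n6 were 180.1, 192, 192 and 172 CPM in KO, against 118, 129, 119 and 129.9 CPM in WT. The groups were apart on both diets, and on SFA too. Its log2 fold changes were 0.54 ± 0.05 on n3, 0.57 ± 0.05 on n6 and 0.41 ± 0.05 on SFA (adjusted p = 6.81e-08, 1.26e-08 and 1.85e-06).

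Uqcrfs1, the Rieske iron-sulfur protein that hands electrons to cytochrome c1 (chr13:30540308-30545362), rose by 0.56 ± 0.06 on n3, 0.61 ± 0.06 on n6 and 0.40 ± 0.06 on SFA. On n6 it measured 163, 169.9, 168 and 162 CPM in KO, against 106, 112, 103 and 115 CPM in WT. These groups did not overlap, and WT on n6 held the lowest 4 values among all 24 libraries. Uqcrc1, the other core protein, rose by 0.44 ± 0.05 on n3, 0.44 ± 0.05 on n6 and 0.23 ± 0.05 on SFA. On n3 Uqcrc1 measured 215 to 259 CPM in KO and 171 to 179.7 CPM in WT, and Uqcrh 111 to 146 CPM in KO and 93.3 to 98.2 CPM in WT, apart in both cases. Uqcrh, the hinge protein, had the highest level of the complex (mean of 604 TPM) and rose by 0.45 ± 0.06 on n3, 0.40 ± 0.06 on n6 and 0.27 ± 0.06 on SFA. The small subunits Uqcrb, Uqcrq and Uqcr10 rose on all 3 diets, by 0.23 to 0.55. Uqcr11 rose by 0.41 on n3 and 0.27 on n6, and had 0.06 on SFA (adjusted p = 0.582), with -0.12 there in unscaled TPM.

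In complex IV, 10 of 14 members rose on n3, 10 on n6 and 9 on SFA. The 10 widely expressed subunit forms rose, except Cox8a on SFA, and the forms known from other tissues or settings did not pass the test. Cox5a, a subunit on the matrix side (chr9:57521274-57532426), had the largest average rise of all members (0.53). It measured 95.00, 82.6, 106 and 101 CPM in KO on SFA, against 61.2, 66.7, 72.4 and 71.03 CPM in WT. No WT library on SFA reached the KO range, and the log2 fold changes were 0.61 ± 0.07 on n3, 0.49 ± 0.07 on n6 and 0.51 ± 0.07 on SFA (adjusted p = 3.10e-07, 4.69e-06 and 2.92e-06). Cox7b, a small membrane subunit encoded on the X chromosome (chrX:106015700-106022450), had the smallest p of the complex in the average over diets.

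Cox7b measured 99.7, 103, 101 and 82.1 CPM in KO on n3, against 62.8, 67.9, 65.1 and 65.1 CPM in WT. Its values on n6 were 79.4, 78.5, 74.2 and 77.4 CPM in KO, against 50.6, 54.4, 51.7 and 53.6 CPM in WT. On SFA there were 81.3, 77.97, 86.8 and 87.2 CPM in KO, against 61.1, 67.3, 67.8 and 67.6 CPM in WT. KO and WT were apart on each diet, and Cox7b rose by 0.57 ± 0.06 on n3, 0.56 ± 0.06 on n6 and 0.34 ± 0.06 on SFA (adjusted p = 4.75e-08, 3.21e-08 and 3.84e-05). Cox8a, the subunit with the highest level of complex IV (mean of 1181 TPM), rose by 0.34 on n3 and 0.25 on n6 and had 0.08 on SFA, with -0.09 there in unscaled TPM. Cox4i1, Cox5b, Cox6a1, Cox6b1, Cox6c, Cox7a2 and Cox7c rose on all 3 diets, by 0.17 to 0.54. The call of Cox7c on SFA (0.17, adjusted p = 0.0379) was lost when any of 6 of the 8 libraries of that diet was left out (all but KO replicate 2 and WT replicate 4), and its sign turned to -0.01 in unscaled TPM.

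The other members that later comparisons turn on are given by their ranges over the 4 libraries of a group on n3. Cox6c, a small membrane subunit, measured 115 to 146 CPM in KO and 91.7 to 99.2 CPM in WT, and Cox6a1 177 to 224 CPM in KO and 141 to 153 CPM in WT. Cox4i1, which holds the ATP site of the enzyme, measured 339 to 427 CPM in KO and 267 to 286 CPM in WT, and Cox7c 109.5 to 139.8 CPM in KO and 92.4 to 99.3 CPM in WT. Cox8a measured 218 to 275 CPM in KO and 189.6 to 204 CPM in WT. Each of these 5 lay higher in KO without overlap on n3. On SFA, Cox6a1, Cox7c and Cox8a overlapped between KO and WT. The lowest KO library on SFA had 166.6 (Cox6a1), 100.8 (Cox7c) and 203.6 CPM (Cox8a). The highest WT library there had 166.8, 107.1 and 222.9 CPM.

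Cox4i2 is the form of subunit 4 known from lung and from low oxygen. It measured 1.79, 2.84, 2.46 and 3.61 CPM in KO on n3, against 3.52, 3.01, 3.34 and 3.46 CPM in WT. The groups overlapped, with 3 KO libraries below all WT libraries and replicate 4 above them. Its log2 fold changes of -0.32 ± 0.15 on n3, 0.35 ± 0.15 on n6 and 0.16 ± 0.15 on SFA did not pass the test (adjusted p = 0.109, 0.0732 and 0.438), and on n3 it passed without KO replicate 4. On n6 its 4 KO libraries lay narrowly above the WT libraries, from 2.676 CPM in KO against at most 2.67 CPM in WT. Cox4i2 passed there without replicate 1 or replicate 4 of KO on n3, which share in the estimate of spread. Cox6a2, the form of heart and skeletal muscle, measured 1.02 CPM in KO n6 replicate 1, the library with the highest summed muscle markers (354 CPM), and 0.14 to 0.45 CPM in the other 23. Cox6b2, the form of testis, had log2 fold changes of -0.05 ± 0.20 on n3, -0.28 ± 0.19 on n6 and -0.11 ± 0.20 on SFA, none of which passed.

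Cox7a2l, which joins complex III to complex IV in supercomplexes (chr17:83501918-83517330), did not pass the test on any diet. It measured 94.2, 99.4, 100.2 and 87.5 CPM in KO on n3, against 88.9, 95.7, 85.5 and 86.97 CPM in WT. On n6 there were 85.6, 84.5, 81.8 and 87.02 CPM in KO, against 89.2, 89.6, 86.97 and 81.6 CPM in WT. The groups overlapped on all 3 diets, and its log2 fold changes were 0.10 ± 0.05 on n3, -0.04 ± 0.05 on n6 and 0.00 ± 0.04 on SFA (adjusted p = 0.0991, 0.554 and 0.994). With replicate 4 of KO or replicate 2 of WT on n3 left out, Cox7a2l passed the test on n3. In unscaled TPM its sign turned to -0.13 on n3, -0.16 on SFA and -0.18 in the average. Its paralog Cox7a2, a subunit of complex IV itself, rose by 0.54 ± 0.07 on n3, 0.42 ± 0.07 on n6 and 0.27 ± 0.07 on SFA. The ratio of Cox7a2l to Cox7a2 in TPM was 0.428 in KO and 0.579 in WT on n3, 0.484 in KO and 0.663 in WT on n6, and 0.458 in KO and 0.551 in WT on SFA. KO libraries were below all WT libraries on each diet. An exact two-sided permutation test over 4 against 4 libraries gave p = 0.0286 on each diet, the smallest it can give, and 0.107 after Benjamini-Hochberg adjustment over 15 ratio tests, which does not pass.

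Complex V had 17 members, of which 16 rose on n3, 14 on n6 and 13 on SFA. The call of Atp5e in the average (adjusted p = 0.0244) was lost without WT replicate 3 on n3 or WT replicate 3 on n6. Atp5b, the catalytic β subunit of the F1 head (chr10:128083273-128090391), had the highest level of all members, with a mean of 1586 TPM. It measured 1658, 1762, 1815 and 1517 CPM in KO on n3, against 1217, 1269, 1207 and 1233 CPM in WT. The n6 libraries held 1489, 1577, 1504 and 1464 CPM in KO, against 1056, 1122, 1050 and 1148 CPM in WT. On SFA there were 1534, 1455, 1637 and 1620 CPM in KO, against 1185, 1268, 1250 and 1300 CPM in WT. KO lay above WT without overlap in CPM on each diet. The rise was 0.45 ± 0.05 on n3, 0.46 ± 0.05 on n6 and 0.32 ± 0.05 on SFA (adjusted p = 3.54e-07, 1.57e-07 and 2.92e-05). In TPM the groups of Atp5b were apart on n3 and n6 and overlapped on SFA. There it had 1595, 1474, 1606 and 1662 TPM in KO, against 1477, 1499, 1492 and 1485 TPM in WT.

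Atp5f1, subunit b of the stalk that holds the head (chr3:105942698-105960099), had the smallest p of complex V in the average over diets. On SFA it measured 243, 226, 258 and 255 CPM in KO, against 182, 195, 203 and 197 CPM in WT. Those groups were apart, and it rose by 0.47 ± 0.05 on n3, 0.39 ± 0.05 on n6 and 0.34 ± 0.05 on SFA. Of the rest of the F1 head, Atp5a1 (α, the partner of β) rose by 0.37 ± 0.05 on n3, 0.34 ± 0.05 on n6 and 0.24 ± 0.05 on SFA, and Atp5c1 (γ, the central shaft) by 0.46 ± 0.05 on n3, 0.39 ± 0.05 on n6 and 0.25 ± 0.05 on SFA. Atp5d (δ of the shaft) rose by 0.37 ± 0.05 on n3, 0.33 ± 0.05 on n6 and 0.19 ± 0.05 on SFA.

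Atp5e, the ε subunit at the foot of the shaft (chr2:174461072-174464105), had the smallest interaction p of the complex after Atp5g2. It measured 71.4, 73.3, 72.8 and 59.8 CPM in KO on n3, against 54.97, 60.4, 54.6 and 57.8 CPM in WT. Its n6 values were 56.03, 55.3, 54.9 and 54.9 CPM in KO, against 53.9, 57.4, 48.9 and 52.4 CPM in WT. On SFA there were 61.9, 56.3, 63.7 and 67.00 CPM in KO, against 60.6, 67.3, 63.3 and 67.7 CPM in WT. On n3 only KO replicate 4 lay within the WT range, while on n6 and SFA the groups overlapped. Its log2 fold changes were 0.28 ± 0.06 on n3, 0.06 ± 0.06 on n6 and -0.06 ± 0.06 on SFA (adjusted p = 7.78e-04, 0.48 and 0.499). In unscaled TPM its value on n3 was 0.05 (limma adjusted p = 0.310), so that call was lost, and its sign turned to -0.15 on n6 and -0.11 in the average.

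The stalk and membrane subunits Atp5o, Atp5j, Atp5j2, Atp5k, Atp5l, Atp5md and Atp5mpl rose on all 3 diets, by 0.17 to 0.52. Atp5h, subunit d of the stalk, rose by 0.33 on n3 and 0.21 on n6 and had 0.10 on SFA (adjusted p = 0.164), with -0.07 there in unscaled TPM. On n3 Atp5j2 measured 80.7 to 97.1 CPM in KO and 66.4 to 72.4 CPM in WT. Atp5l (subunit g) had 119.5 to 158 CPM in KO and 104 to 112 CPM in WT on n3. Atp5md had 54.9 to 69.2 CPM in KO and 42.95 to 46.97 CPM in WT on n3, and all were apart. On SFA Atp5j2 overlapped, with 73.0 to 85.4 CPM in KO and 68.6 to 74.8 CPM in WT. Atp5l overlapped there too, with 118.6 to 147.2 CPM in KO and 106.1 to 122.7 CPM in WT. Atp5j2, subunit f, was called on SFA by 0.17, a call lost without KO replicate 3, KO replicate 4 or WT replicate 1 of that diet, and its sign turned to -0.04 in unscaled TPM.

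Subunit c forms the turning ring of complex V. It is encoded by 3 genes, Atp5g1, Atp5g2 and Atp5g3, whose mature proteins are the same and whose leader peptides differ, so that reads from the shared stretch could be split among them in a way the sources used here do not describe. Atp5g3 (chr2:73908447-73911326) carried 89.4% to 92.9% of the summed TPM of the 3 genes in the group means. It rose by 0.46 ± 0.06 on n3, 0.37 ± 0.06 on n6 and 0.35 ± 0.06 on SFA, and on n3 measured 323, 346, 360.2 and 292 CPM in KO, against 238, 250.2, 237 and 237 CPM in WT, with no overlap. Atp5g1 (chr11:96068852-96075670) went the other way: it measured 22.6, 18.6, 20.96 and 22.5 CPM in KO on SFA, against 23.9, 25.3, 24.6 and 26.5 CPM in WT. Every KO library on SFA was below every WT library. On n6 there were 21.8, 20.1, 19.3 and 21.3 CPM in KO, against 24.8, 24.1, 22.4 and 23.8 CPM in WT, again apart. On n3 there were 24.9, 25.2, 25.7 and 20.2 CPM in KO, against 24.03, 24.7, 22.2 and 24.4 CPM in WT, where only KO replicate 4 was below the WT range and the other 3 were above it.

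Atp5g1 was the only member to fall in the counts, with log2 fold changes of 0.01 ± 0.07 on n3, -0.20 ± 0.07 on n6 and -0.24 ± 0.07 on SFA (adjusted p = 0.918, 0.0188 and 0.00612). The fall on SFA passed without each single library. The fall on n6 was lost without KO replicate 3 or WT replicate 1 of that diet, with adjusted p up to 0.0653. In unscaled TPM the value on n3 turned to -0.23. As a share of the summed TPM of the 3 genes, Atp5g1 made up 4.92% ± 0.41 in KO and 6.65% ± 0.32 in WT on n3 (SD, n = 4). It was 5.10% ± 0.51 in KO and 7.35% ± 0.50 in WT on n6, and 4.42% ± 0.25 in KO and 6.51% ± 0.41 in WT on SFA. On all 3 diets the highest KO share lay below the lowest WT share.

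Atp5g2 (chr15:102662864-102672352) differed between diets. It measured 9.96, 9.92, 11.1 and 8.02 CPM in KO on n3, against 6.21, 5.82, 6.74 and 4.60 CPM in WT. On n6 there were 6.35, 9.48, 8.25 and 7.14 CPM in KO, against 8.10, 8.67, 7.99 and 6.36 CPM in WT. On SFA there were 8.22, 9.23, 11.02 and 8.99 CPM in KO, against 8.68, 7.42, 8.89 and 9.07 CPM in WT. KO was above WT without overlap on n3, and the groups overlapped on n6 and SFA. The WT values on n3 set this pattern as much as the KO values: they were the lowest WT group, with replicate 4 of WT on n3 the lowest of all 24 libraries. The log2 fold changes were 0.73 ± 0.13 on n3, 0.00 ± 0.13 on n6 and 0.14 ± 0.13 on SFA (adjusted p = 1.37e-04, 0.997 and 0.426). The log2 ratio of Atp5g1 to Atp5g2 in TPM was lower in KO by 0.74 on n3, where KO and WT did not overlap (exact permutation p = 0.0286, adjusted p = 0.107), and its differences were -0.21 on n6 (p = 0.314) and -0.38 on SFA (p = 0.0571).

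**Figure D3:**
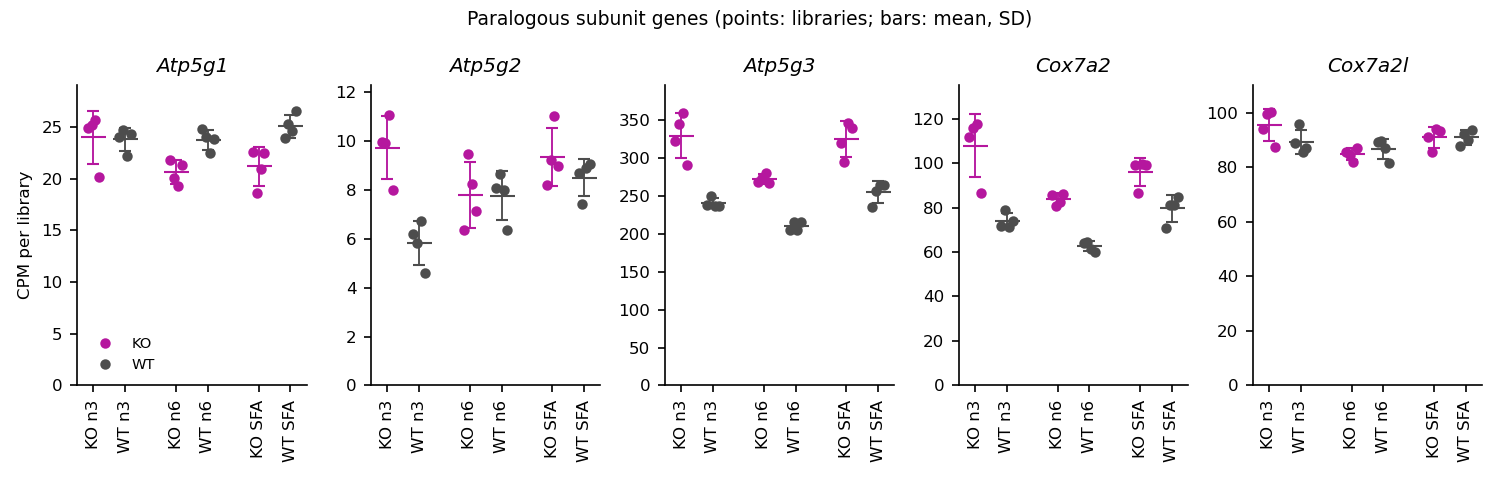
CPM per library (vertical axes, starting at 0) of the subunit c genes Atp5g1, Atp5g2 and Atp5g3 and of Cox7a2 and its paralog Cox7a2l, by genotype and diet (horizontal axes), with points for libraries and bars for the mean and SD of 4. Atp5g3 and Cox7a2 lie higher in KO on each diet, Atp5g1 lower on n6 and SFA, Atp5g2 higher on n3 (0.73 on the log2 scale), and Cox7a2l overlaps between KO and WT on each diet.

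The 3 subunit c genes are shown by the sequence before their starts, since they went 3 different ways. The sequences are from RefSeq (GRCm38.p6, the same assembly as mm10), on the minus strand, 5′ to 3′, from 250 bases before the RefSeq start up to the nearest GENCODE exon of the gene. That of Atp5g2 lies inside the span of the gene in GENCODE, which holds a longer transcript. Capitals mark the motif TNAAGGTCA, bound by estrogen-related receptors. It lies on the opposite strand here, so it is printed as its reverse complement, TGACCTTGA.
Atp5g1, chr11:96075671-96075881: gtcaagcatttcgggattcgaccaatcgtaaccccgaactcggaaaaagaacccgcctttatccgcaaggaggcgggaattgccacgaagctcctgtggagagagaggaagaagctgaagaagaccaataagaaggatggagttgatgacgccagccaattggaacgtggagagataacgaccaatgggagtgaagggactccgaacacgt
Atp5g2, chr15:102671128-102671297: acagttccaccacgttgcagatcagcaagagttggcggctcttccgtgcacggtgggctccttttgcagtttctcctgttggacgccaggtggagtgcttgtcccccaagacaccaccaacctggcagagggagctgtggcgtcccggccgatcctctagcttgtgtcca
Atp5g3, chr2:73911327-73911576: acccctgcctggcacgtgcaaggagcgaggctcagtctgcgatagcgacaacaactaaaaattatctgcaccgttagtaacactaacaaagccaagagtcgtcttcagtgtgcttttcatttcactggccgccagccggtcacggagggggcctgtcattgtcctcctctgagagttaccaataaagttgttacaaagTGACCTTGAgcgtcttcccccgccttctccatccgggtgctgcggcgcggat

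Motifs of 4 known regulators of these genes were searched on both strands in the 250 bases before the RefSeq start, for the 36 members that RefSeq promoters matched: GCGCA, any base, then GCGC (NRF1), TNAAGGTCA (estrogen-related receptors), CCGGAAGT (GABP) and AAGATGGC (YY1). Atp5g3 held the estrogen-related receptor motif 52 to 44 bases before its start. Atp5g2 held the NRF1 motif 42 to 33 bases before its start, inside an exon of a GENCODE transcript, and Atp5g1 held none of these letters in this window. Among the 36 members, 7 (19.4%) held the NRF1 motif, against 8.41% of the 11504 tested genes with a RefSeq promoter: Sdha, Sdhd, Cox6a1, Atp5c1, Atp5g2, Atp5h and Atp5k. The GABP motif was in 3 members (8.33%, against 6.04%): Uqcrh, Uqcr11 and Atp5h. The estrogen-related receptor motif was in 1 (Atp5g3, 2.78%, against 0.861%) and the YY1 motif in 1 (Atp5j, 2.78%, against 2.16%). A match is a description of letters and not of a bound site.

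The KO effect was larger on n3 than on SFA in 45 of 47 members and larger on n6 than on SFA in 42, and it was largest on n3 in 40. Over all tested genes the median difference in KO effect was 0.01 for n3 minus SFA and -0.001 for n6 minus SFA. The members share their libraries, so these tallies do not count independent results. The test of a difference in KO effect between diets passed for few members. The interaction of genotype and diet was called for 2 members, Atp5e (adjusted p = 0.0418) and Atp5g2 (adjusted p = 0.0342), where 6.44% of all tested genes were called. DESeq2 called 5 members (10.6%), where it called 12.7% of all genes. In unscaled TPM (TPM + 1) 8 members (17%) were called, above the 5.32% of all genes. In TMM-scaled TPM it was 1 member (2.13%), where 4.28% of all genes were called. Between pairs of diets, Atp5g2 had a KO effect larger on n3 than on n6 by 0.73 (adjusted p = 0.0184, 9.1% of all genes called). No member passed for n3 against SFA (0.819% of all genes called) or for n6 against SFA (0.898%).

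Leaving out replicate 4 of KO on n3 raised the interaction count to 19 members (40.4%), where 16.4% of all genes were called in the same fit. That library was the lowest of its 4 for 44 of the 47 members, and its mean of adipocyte markers was 10.8 on the log2 CPM scale, against 10.97 to 11.2 in the other 3. The part of those markers in the result was not tested. Leaving out any other single library gave 0 to 2 members. The counts for KO against WT without replicate 4 of KO on n3 were 44 on n3, 40 on n6 and 36 on SFA, both directions together. Of all genes, 43.1%, 43.9% and 41.1% were called in that fit.

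Members also moved together between libraries of a group. In KO on SFA, replicate 2 was the lowest for 43 members and replicate 3 the highest for 33. In WT on SFA, replicate 1 was the lowest for 42 and replicate 4 the highest for 36, and in WT on n3 replicate 2 was the highest for 36. In KO on n6, no replicate was the lowest for more than 16 or the highest for more than 14. In KO on SFA the mean log2 CPM of complex I subunits was also lowest in replicate 2 (5.85) and highest in replicate 3 (6.08). In WT on SFA it was lowest in replicate 1 (5.65) and highest in replicate 4 (5.87). The mean of adipocyte markers had the same lowest and highest libraries in these groups. Such shifts were thus not particular to the members, and their share over all tested genes was not counted. Members thus share their libraries and are not replicates of each other.

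**Figure D4:**
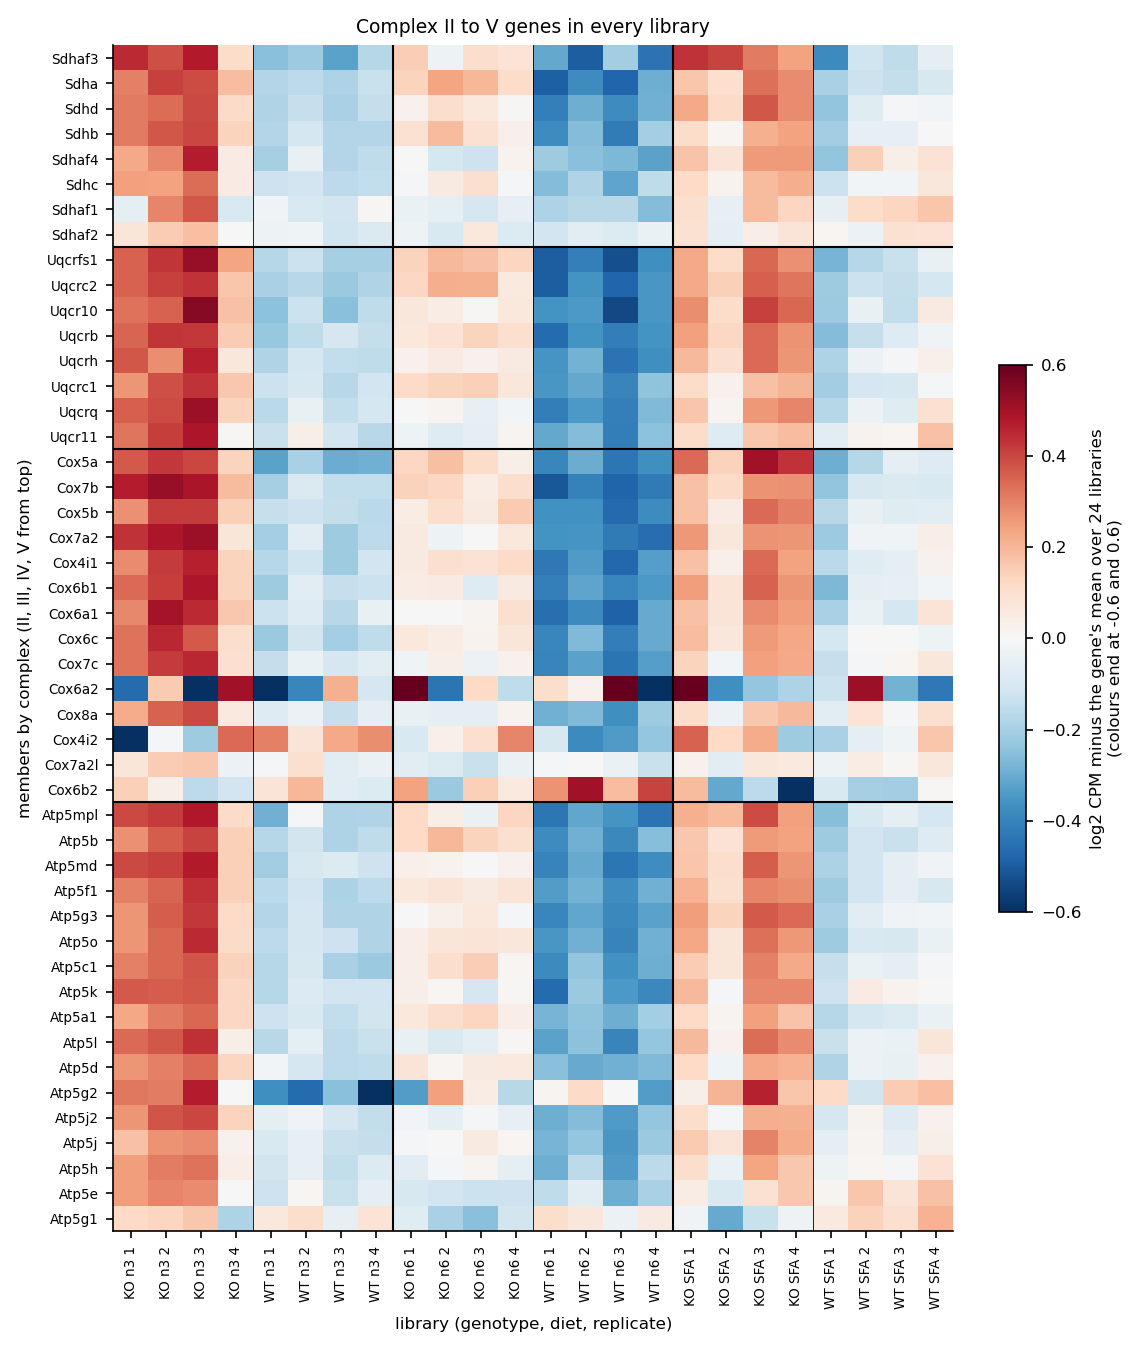
Log2 CPM of each member (rows, by complex) minus its own mean over 24 libraries (columns, by diet, genotype and replicate), with red above and blue below the mean. KO on n3 holds the highest values and WT on n6 the lowest for most members, while Cox6a2, Cox4i2, Cox6b2, Cox7a2l, Atp5g1 and Atp5g2 stand apart, and KO n3 replicate 4 and KO SFA replicate 2 are paler than their groups.

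Members differed between diets within each genotype, and their summed level was lowest on n6. Deposited library names begin with A on SFA, B on n6 and C on n3. The labels do not say what these letters stand for. A difference between diets therefore cannot be told apart from a difference between the lettered sets. In KO, 42 members were higher on n3 than on n6 and 0 were lower, where 15.8% of all genes were higher and 10.3% lower. In WT, 29 were higher and 1 lower, against 9.82% and 8.61%. The median log2 fold changes were 0.24 in KO and 0.19 in WT. Cox7b, for example, was higher on n3 by 0.32 ± 0.06 in KO and 0.31 ± 0.06 in WT (adjusted p = 0.00123 and 4.61e-04). Uqcrfs1 differed by 0.23 and 0.27, and Cox6a1 by 0.33 and 0.30. The member lower on n3 in WT was Atp5g2 (-0.41 ± 0.13, adjusted p = 0.0325), whose value in KO was 0.32. Cox4i2 was higher on n3 in WT by 0.48 ± 0.15 (adjusted p = 0.0295), with -0.18 in KO. Each of these 2 calls was lost in 5 of the 24 fits that left out 1 library. Among them were those without WT replicate 4 on n3 and WT replicates 2 and 3 on n6. The count in WT fell to 17 without WT replicate 3 on n6, where 13.8% of all genes were called, against 18.4% with all libraries.

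Against SFA, 18 members were lower on n6 in KO and 0 higher, where 13.8% of all genes were lower and 8.92% higher. In WT 39 were lower and 0 higher, where 13.1% were lower and 11.6% higher. Median log2 fold changes were -0.15 in KO and -0.27 in WT. Cox7b had -0.11 in KO (adjusted p = 0.165) and fell by 0.33 in WT (adjusted p = 2.74e-04). Atp5g3, Cox5a and Atp5l had the smallest p in KO, with -0.26, -0.25 and -0.26, and in WT they had -0.28, -0.23 and -0.27. That more members were called in WT than in KO is not a tested difference, since 0 members passed for the difference itself. In KO the count depended on single libraries. It ran from 2, without KO replicate 3 of the SFA diet (13.3% of all genes called), to 30, without KO replicate 2 (27.2%). Leaving out any of the other 2 KO libraries on SFA, or any but replicate 1 of KO on n6, gave 9 to 11 (15.9% to 21.8% of all genes). The comparisons of n6 with SFA and of n3 with n6 share the n6 libraries.

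In unscaled TPM the diet counts were 19 higher and 0 lower (KO) and 10 and 2 (WT) for n3 against n6, and 3 higher and 2 lower (KO) and 2 and 19 (WT) for n6 against SFA, with medians of all genes at -0.10, -0.09, 0.11 and 0.14. For n3 against n6, 2.15% of all genes were higher and 20.2% lower in KO, and 3.79% and 21.9% in WT. For n6 against SFA it was 21.8% and 3.29% in KO, and 37% and 3.46% in WT. In TMM-scaled TPM the members' counts for n3 against n6 were 37 higher and 0 lower in KO (11.2% and 7.52% of all genes), and 27 and 1 in WT (7.69% and 6.59%). For n6 against SFA they were 0 and 14 in KO (6.69% and 10.6%), and 0 and 38 in WT (9.2% and 10.1%). Between n3 and SFA no member was called in either genotype, where 0.826% of all genes were higher and 0.636% lower in KO, and 0.0852% and 0.059% in WT. DESeq2 called 2 in KO and 1 in WT, where it called 3.85% and 2.07% of all genes. Median log2 fold changes were 0.10 in KO and -0.07 in WT. Without replicate 4 of KO on n3, 16 members were higher on n3 in KO, where 2.9% of all genes were higher.

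The neighbours of these complexes in the respiratory chain moved alongside. For the counts here and in the next paragraphs, 20.1% of all tested genes rose on n3, 21% on n6 and 20% on SFA. The shares that fell were 18.7%, 22.1% and 19.9%. Complex I, which takes electrons from NADH, had 37 of 37 tested subunit genes higher in KO on n3, 33 on n6 and 24 on SFA, with medians of 0.40, 0.35 and 0.22. Of 6 subunits of complexes III to V that mitochondrial DNA encodes, 4 rose on n3, 6 on n6 and 5 on SFA, with medians of 0.67, 1.00 and 0.62 and median sums on n3, n6 and SFA of 36390, 31160 and 34790 CPM in KO, against 22790, 15840 and 23690 CPM in WT. Cycs, cytochrome c itself, rose by 0.64 ± 0.07 on n3, 0.71 ± 0.07 on n6 and 0.58 ± 0.07 on SFA. Of the subunits that the choice by symbol left out, Cyc1 (cytochrome c1 of complex III) rose by 0.52 ± 0.06 on n3, 0.56 ± 0.06 on n6 and 0.35 ± 0.06 on SFA, and Ndufa4, a subunit now counted to complex IV, by 0.39 on n3 and 0.32 on n6, with 0.14 on SFA. Cox8b and Cox7a1, forms of muscle and brown fat, rose more: Cox8b by 1.51 ± 0.17 on n3, 2.02 ± 0.18 on n6 and 1.18 ± 0.17 on SFA and Cox7a1 by 0.74 ± 0.14 on n3, 0.79 ± 0.15 on n6 and 0.46 ± 0.14 on SFA.

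Genes that build or serve the complexes were mixed. Of 22 tested assembly factors of complex IV, 19 rose on n3, 11 on n6 and 11 on SFA, and 0 fell. For complex III it was 5, 3 and 3 of 6, and for complex V 4, 4 and 3 of 4. Of 13 genes of ubiquinone synthesis, the electron carrier between complexes II and III, 8 rose on n3, 6 on n6 and 6 on SFA, and 1 fell on SFA. All 6 genes of phosphate, ADP and ATP transport rose on n3, 4 on n6 and 5 on SFA. Slc25a5, an ADP/ATP carrier, rose by 0.46 ± 0.05 on n3, 0.52 ± 0.05 on n6 and 0.42 ± 0.05 on SFA. Slc25a4, the carrier form of heart and muscle, rose on n3 (0.24) and had 0.09 and 0.03 on n6 and SFA.

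Of 13 regulators known to act on these genes, 7 rose on n3, 9 on n6 and 8 on SFA, and 0 fell. Ppargc1a (PGC-1α) rose by 0.76 ± 0.13 on n3, 0.74 ± 0.14 on n6 and 0.73 ± 0.13 on SFA, and Esrra (estrogen-related receptor α) by 0.46 ± 0.06 on n3, 0.42 ± 0.06 on n6 and 0.46 ± 0.06 on SFA. Tfam, which packs mitochondrial DNA and starts its transcription, rose by 0.27 ± 0.04 on n3, 0.28 ± 0.04 on n6 and 0.22 ± 0.04 on SFA. Nrf1 rose on n6 alone (0.14), with -0.02 on n3 and 0.05 on SFA, and Pprc1 passed on no diet.

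**Figure D5:**
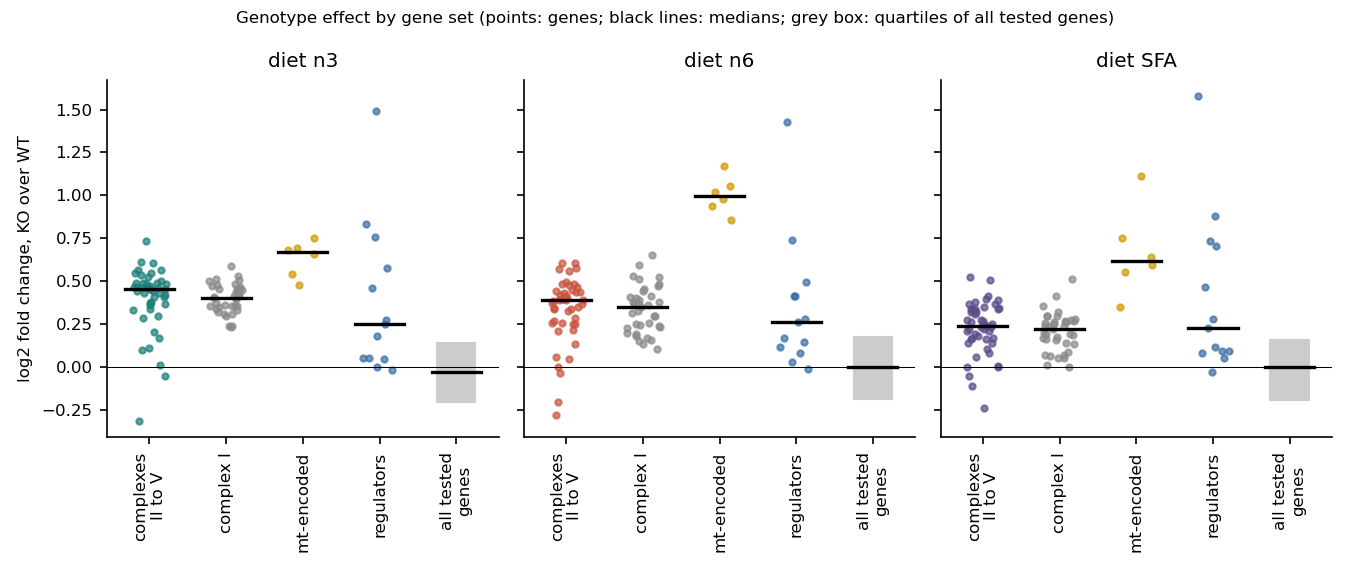
Log2 fold change of KO over WT (vertical axis) on n3, n6 and SFA for the 47 members, 37 complex I genes, 6 mitochondrially encoded subunits and 13 regulators, with points for genes, black lines for medians and a grey box for the quartiles of all 15259 tested genes. Member medians of 0.45, 0.39 and 0.24 lie near those of complex I and below those of the mitochondrially encoded subunits.

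Some markers of other cells were also called between KO and WT. Of all tested genes, 20.1% rose and 18.7% fell on n3, 21% and 22.1% on n6, and 20% and 19.9% on SFA. Of 6 brown or beige adipocyte markers, which include Cox7a1 and Cox8b given above, 4 rose on n3, 6 on n6 and 5 on SFA. Their summed level ran from 61.5 to 85.3 CPM in KO and 31.2 to 38.1 CPM in WT on n3, 56.2 to 66.1 CPM in KO and 11.8 to 18.2 CPM in WT on n6, and 64.7 to 74.4 CPM in KO and 22.8 to 40.9 CPM in WT on SFA, with none of the 6 at 0 in any group. Ucp1, the uncoupling protein that defines them, rose on n6 (1.85 ± 0.58) and had -0.11 on n3 and -0.61 on SFA. Of 6 macrophage markers, 3 fell on n3, 5 on n6 and 6 on SFA, and their summed level was 763 to 1041 CPM in KO and 989 to 1208 CPM in WT on n3, 768 to 1052 CPM in KO and 1013 to 1507 CPM in WT on n6, and 584 to 792 CPM in KO and 992 to 1125 CPM in WT on SFA. Of 6 adipocyte markers, 2 rose and 2 fell on n3, 3 and 2 on n6, and 2 and 2 on SFA. Of 10 skeletal muscle markers 2 rose on n6 and 1 fell on SFA, of 6 B cell markers 4 rose on n6, of 5 T cell markers 5 rose on n6, and of 6 mammary epithelium markers 4 rose on n3, where 2 of them were at 0 in WT and the sum was 1.68 to 4.69 CPM in KO and 0.653 to 0.932 CPM in WT. Of 5 endothelial markers, 0 rose and 2 fell on n3, 1 and 0 on n6, and 4 and 0 on SFA. The muscle counts, and the endothelial count on n6, were not above the shares of all genes. In the fit without the 4 libraries high in muscle or B cell markers, 41 members rose and 1 fell in the average over diets, where 25.5% of all genes were higher and 27.7% lower. With the level of the muscle list as a covariate it was also 41 and 1, where 26.7% and 28.8% of all genes were higher and lower. The part of the other marker lists in the members' change was not tested.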

How the data were processed

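Bulk polyA RNA of 24 iWAT libraries was sequenced, 4 in each of 6 groups named from the titles. Trimming by fastp 0.23.2 and quantification by Salmon, with mm10 as the build, are named per the submitters' processing notes (Salmon's version, options and annotation: not given in the sources used here). The authors deposited estimated counts per gene (33.8% of values not whole, rounded here before testing) and TPM, which are scaled per length and to the same sum in each library. The estimated counts carry transcript length with them and the TPM do not, so a shift in transcript length moves the 2 units apart. The units also differ in scaling, since the counts were scaled by TMM here and the TPM only where stated.

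Members and lists were chosen with earlier results of these data known. Counts were filtered with filterByExpr (minimum count 10, minimum total 15), scaled by TMM and tested with edgeR 4.0.16 (R 4.3.3) by the robust quasi-likelihood F test over 6 group coefficients with 18 residual degrees of freedom. P-values were adjusted by Benjamini-Hochberg over 15259 genes, with a threshold of 0.05. The procedure was tested on simulated data. Alternatives were RLE scaling, no filter, DESeq2 1.42.0, limma 3.58.1 on log2 of the deposited TPM + 1 or + 0.1, only the groups compared, a replicate block, a muscle covariate, leaving out each library or 4 libraries high in markers of muscle or B cells, and, added after seeing the data, TMM-scaled TPM. Totals of 43.6 M to 62.1 M counts leave counting error small except for Cox6a2 and Cox6b2 and, to a lesser degree, Cox4i2 (79 to 219 counts per library).

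Members described by library were those with the smallest p and the highest TPM of each complex, the largest average rises and falls, every fall, the 5 smallest interaction p, the 3 smallest p of each diet comparison and the paralog ratios.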

Additional observations from a re-analysis of the deposited data

Results flagged for a closer look

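Of 132 groups of 4 libraries (22 members), 7 held a library past the critical value of the Dixon test. The test takes the gap to the nearest of the others as a share of the group's range. Chance gives about 1 in 20, so a count of 7 is near what chance gives. Cox6a2, the muscle form, measured 1.02 CPM in replicate 1 of KO on n6, against 0.185 to 0.272 CPM in the other 3, and 0.453 CPM in replicate 1 of KO on SFA, against 0.194 to 0.220 CPM. In KO on SFA, replicate 2 was low for Cox7a2, with 86.4 CPM against 99.0 to 99.4 CPM. In WT on SFA, replicate 1 was low for Cox7b, with 61.1 CPM against 67.3 to 67.8 CPM. Replicate 4 of KO on n3 was low for Atp5e, with 59.8 CPM against 71.4 to 73.3 CPM, and for Atp5g1, with 20.2 CPM against 24.9 to 25.7 CPM. In WT on n3, replicate 2 was high for Atp5g3, with 250.2 CPM against 236.9 to 238.1 CPM.

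The interaction test called Atp5e (edgeR adjusted p = 0.0418) and Atp5g2 (edgeR adjusted p = 0.0342). These were 4.26% of the members, below the 6.44% of all tested genes called. In unscaled TPM the share of members was above that of all genes. It was 17% against 5.32% with TPM + 1, and 10.6% against 2.54% unfiltered. With the muscle covariate, or without the 4 libraries high in muscle or B cell markers, 0 members were called. Atp5e was called in 9 of the 24 fits that left out 1 library and Atp5g2 in 14, with adjusted p up to 0.103 and 0.0824.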

How the results depend on the processing

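The 4 libraries of a group limit every count below, and the low genes Cox6a2 and Cox6b2 are the least precise. Counts of members called for KO against WT kept within 1.5 times under the alternatives run, except on SFA. There limma on unfiltered TPM gave 23 against 35 (26% of all genes called, against 39.9%). By direction, TPM + 1 gave 20 higher and 5 lower on SFA, against 34 and 1, so the higher calls alone moved past 1.5 times. Without single libraries the counts of members called ran from 41 to 44 (n3), 38 to 40 (n6), 32 to 37 (SFA) and 41 to 43 (average). Of all genes, 30.9% to 43.1%, 37.5% to 43.9%, 34.3% to 41.1% and 55.3% to 58.3% were called in those fits. The interaction count of 2 (6.44% of all genes called) was 1 with no filter (2.95%) and 5 with DESeq2 (12.7%). In TPM it was 8 with TPM + 1 (5.32%), 8 with TPM + 0.1 (5.1%), 5 unfiltered (2.54%) and 1 with TMM scaling (4.28%). With the muscle covariate it was 0 (4.62%), and without the 4 libraries high in muscle or B cell markers 0 (2%). Without single libraries it was 0 to 19 (3.26% to 16.4%). For n3 against n6, TPM + 1, TPM + 0.1 and unfiltered TPM gave 19, 19 and 15 in KO (42 in the counts) and 12, 12 and 11 in WT (30 in the counts). Of all genes they called 22.4%, 22.6% and 11.7% in KO (26% in the counts), and 25.7%, 24.4% and 15% in WT (18.4%). Leaving out the 4 libraries gave 27 in KO (8.88% of all genes). Single libraries gave 31 to 44 in KO (13.3% to 34.3%) and 17 to 35 in WT (12.8% to 20.7%). For n6 against SFA the same TPM settings gave 5, 5 and 3 in KO (18 in the counts) and 21, 21 and 20 in WT (39 in the counts). Of all genes they called 25.1%, 25.3% and 12.8% in KO (22.8% in the counts), and 40.5%, 39.4% and 24% in WT (24.7%). In KO the muscle covariate gave 11 (18.4% of all genes), leaving out the 4 libraries 10 (11.1%), and single libraries 2 to 30 (13.3% to 27.2%). In WT single libraries gave 37 to 40 (15.4% to 27%). For n3 against SFA, where no member was called by edgeR, DESeq2 gave 2 in KO (3.85% of all genes) and 1 in WT (2.07%). The TPM settings gave 8, 8 and 4 in KO (1.35%, 1.38% and 0.703%). Single libraries gave 0 to 16 in KO (0.52% to 5.58%) and 0 to 1 in WT (0.0065% to 1.16%).

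Of the members described, values that passed the test in the counts or in the alternative turned sign in unscaled TPM, given as TPM + 1 (the same unfiltered) and TPM + 0.1. For n3 against n6 in KO they were -0.002733 and -0.00274 (Sdha), -0.007357 and -0.007382 (Uqcrc2), and -0.02767 and -0.02769 (Atp5b). In WT Atp5b had -0.0178 and -0.01781 for n3 against n6, and 0.01867 and 0.01868 for n6 against SFA. For KO against WT on n3 they were -0.2298 and -0.2332 (Atp5g1), and -0.1327 and -0.1334 (Cox7a2l). On n6 they were -0.153 and -0.1532 (Atp5e), and -0.002199 and -0.002207 (Atp5j2). On SFA they were -0.09475 and -0.09482 (Cox8a), -0.04165 and -0.04183 (Atp5j2), -0.01379 and -0.01381 (Cox7c), and -0.1639 and -0.1648 (Cox7a2l). In the average they were -0.1133 and -0.1135 (Atp5e), and -0.1782 and -0.1791 (Cox7a2l). The median of all genes moved in the same unit. In TMM-scaled TPM that median for KO against WT was -0.02 on n3, 0.00 on n6 and -0.01 on SFA. The cause was not tested. Under the settings other than unscaled TPM, 11 values for KO against WT turned sign, 0 of them called in the counts. Fits without single libraries are included here. The values were those of Cox6a2 (n3, n6, SFA, average), Cox6b2 (n3, SFA), Atp5g1 (n3), Atp5g2 (n6), and Cox7a2l, Sdhaf1 and Sdhaf2 (SFA).

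Replicate numbers recur in each group. Same-numbered libraries correlated by -0.12 to 0.237 in their deviations, and in no comparison were all 4 above 0.1. They were not treated as pairs in the main test. Whether they share more than a number could not be told from these correlations. With the replicate block the interaction count was 1, and every other count of members called stayed within 1.5 times.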
